A study of Mus musculus with 7 samples.

Results

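Regulators of G protein signalling (RGS proteins) and the inhibitory G protein alpha subunits were followed as 9 named genes, matched on the gene name in the count file: Rgs1, Rgs2, Rgs3, Rgs10, Rgs14, Rgs16, Rgs19, Gnai2 and Gnai3. All 9 were among the 55364 genes of the file, each under a single gene identifier. The cells were CD45+CD3+CD4+ T cells sorted from orthotopic tumours of the lung in C57BL/6 mice, all over 8 weeks of age, and their transcripts were counted at the 3′ end. The Control group (5 libraries) carried the genotype I-AbF/F, a loxP-flanked allele of an MHC class II chain, without Cre. The Cre group (2 libraries) carried I-AbF/F together with Col1a2-cre. Both groups had the same flanked allele and the same tamoxifen induction, and none of the 7 libraries carried Cre without the flanked allele. The Col1a2 promoter is active in fibroblasts, so the deletion was aimed at cells other than the sorted ones. Whether each library came from a single animal or from pooled animals is not given in the sources used here.

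In chemokine receptor signalling, an activated receptor loads GTP onto a G protein alpha subunit of the Gi class, which then separates from its beta and gamma subunits, and both parts act on effectors of adhesion and movement. RGS proteins bind the GTP-loaded alpha subunit and speed up GTP hydrolysis, which ends the signal. In T cells, Gi proteins carry the signals of most homing receptors, and several RGS genes are induced when the cells are activated.

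The libraries held 1449739 to 1929899 counts. Cd4 had 330 to 738 counts in Control against 731 and 567 in Cre replicates 1 and 2. Of the CD3 chains, Cd3d had 513 to 1047 counts in Control against 768 and 932 in Cre, Cd3g had 69 to 496 in Control against 513 and 42 in Cre, and Cd3e had 51 to 405 in Control against 116 and 3 in Cre. The Cre libraries had more genes without a count, with 25.0% and 33.6% of the 9854 tested genes at 0. In Control these were 1.14% for replicate 1 and 12.3% to 16.1% for the other replicates. H2-Ab1, the I-Ab beta chain gene, had 76 to 183 counts in Control against 87 and 112 in Cre. That does not check the deletion, which was aimed at fibroblasts.

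All 9 genes passed the filter on low counts, and none passed the threshold between Cre and Control in edgeR's quasi-likelihood test (adjusted p = 0.429 to 0.998, Benjamini-Hochberg over 9854 genes). Over all tested genes, 1 was called, or 0.0101%. At an unadjusted p under 0.05, 1 of the 9, Gnai2, was lower in Cre and 0 were higher, against 10.2% of all tested genes lower and 1.41% higher, or 11.6% in either direction. DESeq2 called 0 of the 9 and 7.65% of the genes it gave an adjusted p (0.417% higher and 7.23% lower). With limma voom, 0 of the 9 and 0.0304% of tested genes were called. The authors' deposited table called 0 of the 9 (FDR of 0.609 to 1) and 3.85% of its genes. For none of the 9 did both Cre libraries lie on one side of all Control libraries, which was so for 4.05% of tested genes as higher and 10.9% as lower. Among tested genes within 1 log2 CPM of its level, the SD of log2 CPM over Control libraries stood between the 69.5 and 80.8 percentile for Rgs1, Rgs2, Rgs10, Rgs14, Rgs16 and Rgs19. It stood at the 31.6 percentile for Rgs3, 34.8 for Gnai2 and 45.0 for Gnai3. The plot by library shows these spreads.

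**Figure D1:**
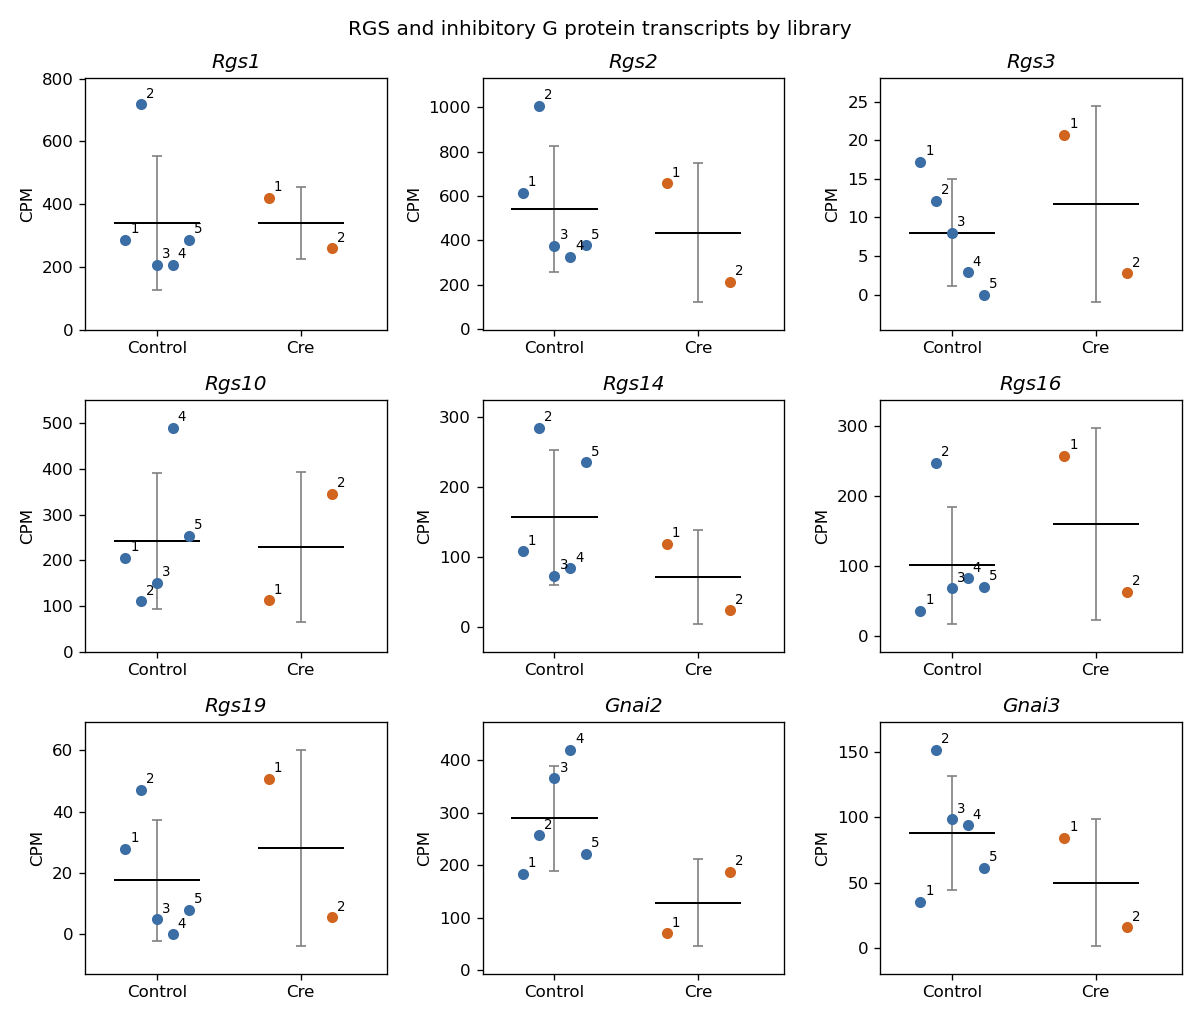
Normalised read counts (CPM, each count divided by its library's total and scaled to the usual unit) of each of the 9 genes; each panel has its own scale, each point is a library labelled with its replicate number, bars mark the group mean and grey whiskers the SD (5 Control, 2 Cre). In every panel at least 1 Cre library lies within the Control range.

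Gnai2 encodes the alpha subunit that carries most Gi signalling in lymphocytes. It is on chromosome 9, minus strand, from 107614125 to 107635367 (mm10), and 99.6% of its counts fell in 1 region, at 107613876 to 107615098, with 974 of its 1223 bases in the 3′ UTR. Its level was 184, 257, 365, 420 and 221 CPM in Control replicates 1 to 5 and 70.0 and 187 CPM in Cre replicates 1 and 2. Cre replicate 1 was the lowest of the 7 libraries, while Cre replicate 2 lay just above the lowest Control library, so the groups overlapped. The Control mean was 289 ± 99.6 CPM (SD, n = 5) and the Cre mean 128 ± 82.7 CPM (n = 2). The log2 fold change of −1.17 ± 0.54 (SE; 95% interval −2.34 to −0.0068) did not pass (edgeR adjusted p = 0.429, unadjusted 0.0489). It was −1.99 without Cre replicate 2 and −0.61 without Cre replicate 1, each time with the remaining Cre library assumed to vary as the Control libraries do. Gnai2 had the smallest relative spread in Control of the 9 genes, with a coefficient of variation of 34.4%. In a bulk sample, fewer cells with a transcript and less of it per cell cannot be told apart.

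Gnai3 encodes a second Gi alpha subunit of broad expression. It is on chromosome 3, minus strand, from 108107280 to 108146146, and all its counts fell in 1 region of which 2037 of 2286 bases are 3′ UTR. Its level was 35.6, 152, 98.4, 93.9 and 61.4 CPM in the Control libraries, compared with 84.5 and 15.9 CPM in those with Cre. Cre replicate 1 lay inside the Control range and Cre replicate 2 below it. The log2 fold change was −0.78 ± 0.93 (edgeR adjusted p = 0.806), with an interval from −2.79 to 1.24. Without Cre replicate 2 it was 0.00061, and without Cre replicate 1 it was −2.45.

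Cre replicate 1 was the lower of the Cre libraries for Gnai2 and the higher for Gnai3, so the share of Gnai2 among the summed counts of both genes was also examined. That share was 83.8%, 62.9%, 78.8%, 81.7% and 78.3% in Control, and 45.3% in Cre replicate 1 and 92.2% in Cre replicate 2. The exact binomial 95% intervals, which cover counting error only, were 39.6% to 51.1% in Cre replicate 1 and 88.5% to 94.98% in Cre replicate 2, and those of the Control libraries ran from 58.9% to 87.4% in all. Neither Cre interval touched a Control interval, but 1 Cre library was below every Control library and the other above. These opposite directions follow largely from the values of Gnai2 and Gnai3 that prompted the share, so they are no separate support. Libraries of the same group also differed by more than counting error. The interval of Control replicate 2, 58.9% to 66.7%, touched no other interval either. No test between groups was made on this share. Gnai1, the other gene of the Gnai family, had 0 counts in all 7 libraries, which allows up to 1.55 to 2.07 CPM in a library.

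**Figure D2:**
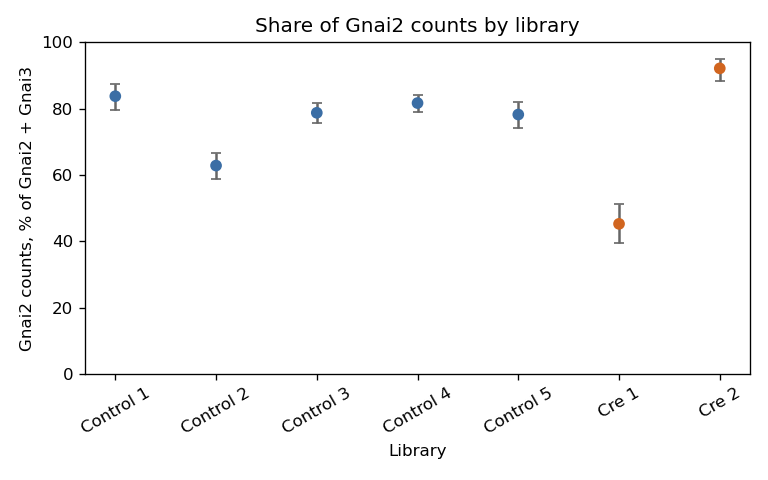
Gnai2 counts as a percent of Gnai2 plus Gnai3 counts in each library (Control blue, Cre orange), with exact 95% binomial intervals for counting error. Cre replicate 1, at 45.3%, is lower and Cre replicate 2, at 92.2%, higher than all 5 Control libraries, which lie at 62.9% to 83.8%.

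Rgs1, which in lymphocytes dampens migration towards chemokines, belongs to the small R4 group of RGS proteins. Nearly all its counts (99.9%) fell in 1 region on chromosome 1, minus strand, from 144242047 to 144246353, with 3711 of its 4307 bases in the 3′ UTR. Its level was 286, 718, 205, 206 and 285 CPM in the Control libraries, compared with 420 and 259 CPM in those with Cre. Control replicate 2 stood far above the other 4 Control libraries, and both Cre libraries lay within the Control range. The group means were 340 ± 215 CPM in Control and 339 ± 114 CPM in Cre, with a log2 fold change of 0.01 ± 0.53 (edgeR adjusted p = 0.998; interval −1.15 to 1.17). The difference was 0.47 without Control replicate 2, −0.38 without Cre replicate 1 and 0.36 without Cre replicate 2, so its sign changed with the libraries used.

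Rgs2, an R4 protein known for its preference for the Gq class of alpha subunits, lies on the same chromosome and strand at 143999338 to 144004161. Its level was 613, 1007, 376, 326 and 378 CPM in the Control libraries, compared with 658 and 214 CPM in those with Cre. Cre replicate 1 was exceeded only by Control replicate 2, and Cre replicate 2 was the lowest of the 7 libraries. The log2 fold change was −0.30 ± 0.56 (edgeR adjusted p = 0.901; interval −1.51 to 0.91), and it was 0.33 without Cre replicate 2, −1.33 without Cre replicate 1 and 0.04 without Control replicate 2. The region at the 3′ end, of which 2530 of 2979 bases are 3′ UTR, held 96.6% of Rgs2 counts. A pair of further regions inside the gene held 120 and 80 counts. Of these, 67 and 70 came from Control replicate 2, and Control replicates 4 and 5 and Cre replicate 2 had 0 in both.

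Rgs16, an R4 protein whose gene is induced in activated T cells, lies on the plus strand of chromosome 1 at 153740349 to 153745468. Its level was 36.2, 248, 68.9, 82.9 and 71.3 CPM in the Control libraries, compared with 258 and 63.5 CPM in those with Cre. Cre replicate 1 and Control replicate 2 formed a high pair, and the other 5 libraries lay between 36.2 and 82.9 CPM. The Control mean was 101 ± 83.7 CPM and the Cre mean 160 ± 137 CPM. The log2 fold change of 0.70 ± 0.79 did not pass (edgeR adjusted p = 0.793; interval −1.01 to 2.41). It was 1.34 without Control replicate 2, 1.41 without Cre replicate 2 and −0.65 without Cre replicate 1.

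Rgs3, an R4 gene with long and short protein forms, had few counts: 29, 18, 13, 5 and 0 in Control against 40 and 4 in Cre. The count of 0 allows up to 1.84 CPM in that library. Its log2 fold change of 0.53 ± 1.97 had an interval from −3.75 to 4.81 (edgeR adjusted p = 0.958). The value was −1.53 without Cre replicate 1 and 1.38 without Cre replicate 2. The counts came from more than 1 end of the gene. A region on the plus strand of chromosome 4 at 62657211 to 62660089, where 3 of the 8 annotated coding transcripts end, held 28, 2, 13, 0 and 0 counts in Control against 40 and 0 in Cre. The last region, at 62702246 to 62704250, begins 42.2 kb further on, takes in the ends of another 3 coding transcripts and held 1, 16, 0, 5 and 0 counts in Control and 0 in both Cre libraries. All 40 counts of Cre replicate 1 thus fell in the first of these, while 16 of the 18 counts of Control replicate 2 fell in the last. The 4 counts of Cre replicate 2 fell in another region, at 62690283 to 62690531, whose 249 bases are all coding sequence.

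Rgs10, a small RGS protein known mainly from myeloid cells and microglia and also expressed in T cells, had a different order over the libraries. Its level was 205, 110, 151, 491 and 253 CPM in the Control libraries, compared with 112 and 346 CPM in those with Cre. The libraries with the highest Rgs1 and Rgs16, Control replicate 2 and Cre replicate 1, had the lowest Rgs10, and Control replicate 4 had the highest. The group means were 242 ± 149 and 229 ± 165 CPM, with a log2 fold change of −0.09 ± 0.62 (edgeR adjusted p = 0.976; interval −1.44 to 1.26). It was −1.06 without Cre replicate 2, 0.52 without Cre replicate 1 and 0.35 without Control replicate 4. All counts came from 1 region on chromosome 7, minus strand, from 128373372 to 128374000.

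Rgs14, an RGS protein that also carries a motif binding inactive Gi alpha subunits, stood at 108, 285, 73.2, 83.5 and 235 CPM in the Control libraries, compared with 119 and 23.5 CPM in those with Cre. Cre replicate 1 lay in the middle of the Control range and Cre replicate 2 below all other libraries. The Control mean was 157 ± 96.6 CPM and the Cre mean 71.1 ± 67.3 CPM. The log2 fold change of −1.10 ± 0.81 did not pass (edgeR adjusted p = 0.5999; interval −2.86 to 0.65), and it was −2.71 without Cre replicate 1 and −0.34 without Cre replicate 2.

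Rgs19, also called GAIP, was first described through its binding to Gnai3 and belongs to the RZ group of RGS proteins, which carry a string of cysteines. It had 47, 70, 8, 0 and 13 counts in Control against 98 and 8 in Cre. Control replicates 1 and 2 and Cre replicate 1 were high and the other 4 libraries had 13 counts or fewer. The count of 0 in Control replicate 4 allows up to 1.74 CPM. The log2 fold change was 0.69 ± 1.84 (edgeR adjusted p = 0.938; interval −3.31 to 4.68), 1.56 without Cre replicate 2 and −1.66 without Cre replicate 1. Its only region, on chromosome 2, minus strand, from 181688170 to 181689661, overlaps a region of a gene on the opposite strand, and whether the counting used strand is not given, so counts of both genes may be mixed. No region of the other 8 genes that held counts overlapped a counted region of another gene.

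**Figure D3:**
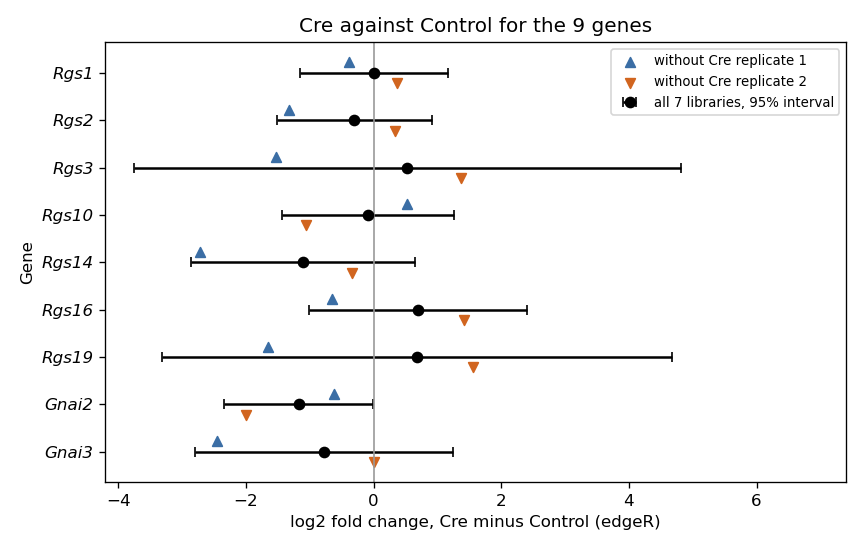
Log2 fold change of Cre minus Control for each gene from edgeR with all 7 libraries (black, with 95% interval) and with 1 Cre library left out (triangles). Gnai2 and Rgs14 are below 0 in all 3 fits shown. Rgs1, Rgs2, Rgs3, Rgs10, Rgs16 and Rgs19 lie on opposite sides of 0 depending on which Cre library is left out. Gnai3 is below 0 without Cre replicate 1 and practically at 0 (0.00061) without Cre replicate 2.

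Several members shared an order over the libraries. Cre replicate 1 had a higher CPM than Cre replicate 2 for 7 of the 9 genes and a lower one for Rgs10 and Gnai2. Over all tested genes replicate 1 was higher for 47.2% and lower for 39.1%. Another 1351 tested genes were at 0 in both Cre libraries, which was so for none of the 9, and these lower both shares. The ratio of replicate 1 to replicate 2 ran from 1.62 for Rgs1 to 9.20 for Rgs19 among the 7, and was 0.325 for Rgs10 and 0.374 for Gnai2. Control replicate 2 and Cre replicate 1 were the 2 highest libraries for 4 of the 9 genes, Rgs1, Rgs2, Rgs16 and Rgs19, which held for 4.38% of all tested genes. The same libraries were the 2 lowest for 1 of the 9, Rgs10, against 4.53% of tested genes. Genes at 0 in Cre replicate 1 are in the base of the 4.38% but could not have that order. The counts of Rgs19 may be mixed with those of a gene on the opposite strand. The shared order was noticed in the values and is given without a test.

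**Figure D4:**
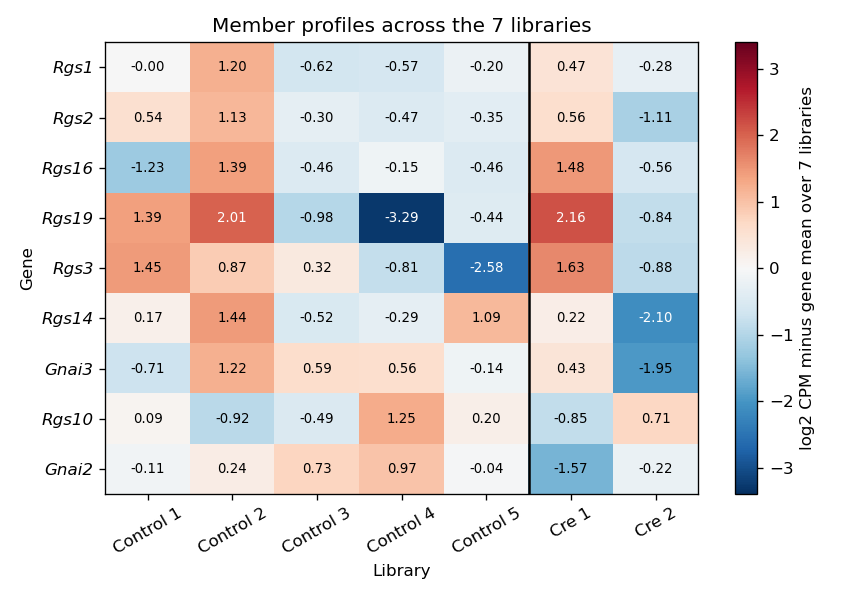
Log2 CPM (TMM-normalised, prior count 2) of each gene minus its mean over the 7 libraries; the vertical line separates Control from Cre. Rgs1, Rgs2, Rgs16 and Rgs19, and also Rgs3, Rgs14 and Gnai3, are above their mean in both Control 2 and Cre 1. Rgs10 is below its mean in both, and Gnai2 has its lowest value in Cre 1.

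The 7 RGS genes together summed to 1293, 2427, 887, 1192 and 1231 CPM in the Control libraries, compared with 1638 and 913 CPM in those with Cre, again highest in Control replicate 2 and next in Cre replicate 1. Rgs1 and Rgs2 held between 44.6% and 71.1% of the counts of the 7 in Control and 65.8% and 51.7% in Cre. Rgs10 held 4.52% and 6.86% of them in Control replicate 2 and Cre replicate 1, and 15.8% to 41.2% in the other 5 libraries. These are shares of counts and not levels per length.

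Immediate early and heat shock transcripts, a list of 14 genes chosen after the values were seen because Rgs1, Rgs2 and Rgs16 are themselves inducible, were highest as a sum in the same libraries. They summed to 3580, 6998, 3923, 2407 and 3403 CPM in the Control libraries, compared with 5110 and 2850 CPM in those with Cre. Of the 14, 6 (Fos, Jun, Dusp1, Zfp36, Hspa1a and Hspa1b) had these libraries as their 2 highest, where 4.38% of all tested genes did. The other 8, among them Atf3, which was not tested, had another order. The list was chosen with the order of the RGS genes known, and Dusp1 is also among the nearest profiles of Rgs16. The count of 6 is therefore no test of the list. Of the 6, Jun, a subunit of the AP-1 transcription factor, had 2745 counts in Control replicate 2 and 2342 in Cre replicate 1, against 692 to 1650 in the other 5 libraries. Hspa1a, an inducible heat shock chaperone, had 1088 and 1660 counts there against 16 to 558. Junb was high in Control replicate 2, at 3156 counts, but low in Cre replicate 1, at 926. Egr1 had its lowest level in Cre replicate 1, at 86.5 CPM, and Btg2 its lowest in Control replicate 2, at 135 CPM. Nr4a1 was highest in Control replicate 3, Jund in Control replicate 1 and Fosb in Cre replicate 2. The part of these transcripts in the order of the RGS genes was not tested.

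Markers of other cell types ranged from absent, for several defining genes, to clearly counted, for fibroblasts. Among B cell markers, Ms4a1, Pax5 and Blk had 0 counts in all libraries, and the list summed to 42.3 to 354 CPM in the Control libraries, compared with 97.4 and 42.1 CPM in those with Cre, most of it Ighm in 6 of the 7 libraries and Igkc in Control replicate 4. Of 10 macrophage and monocyte markers, 8 had a count in some library, Adgre1 and C1qc had none, and the sum was 13.9 to 47.4 CPM in the Control libraries, compared with 1.04 and 4.83 CPM in those with Cre. Neutrophil markers summed to at most 0.690 CPM in any library, NK markers to at most 16.8 CPM and CD8 markers to at most 9.49 CPM. Endothelial and pericyte markers, of which Cdh5 and Cspg4 were at 0, summed to 68.7 CPM in Control replicate 2 and 66.3 CPM in Cre replicate 1, and to 6.21 to 64.0 CPM in the other libraries. In Control replicate 2 and Cre replicate 1 the whole sum came from 1 gene, Pecam1. Epithelial and tumour markers reached at most 2.37 CPM, with Krt8, Krt18, Krt19 and Nkx2-1 at 0. Fibroblast markers, of which Pdgfrb was at 0, summed to 190 to 793 CPM in the Control libraries, compared with 345 and 57.9 CPM in those with Cre. These markers did not share 1 direction. Col1a1 (43.5 and 4.14 CPM) and Col1a2 (3.63 and 1.38 CPM) were lower in both Cre libraries than in every Control library. Dcn, at 189 CPM in Cre replicate 1, was above the highest Control library (158 CPM) and made up most of that library's sum. The remaining markers with counts overlapped between groups. The T cell list, for comparison, totalled 6325 to 8587 CPM in the Control libraries, compared with 8132 and 6994 CPM in those with Cre. The part of these cells in the members' values was not tested.

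Among all 3556 tested genes with a mean log2 CPM of at least 5, the profile most like that of Rgs1 belonged to Pgd, an enzyme of the pentose phosphate pathway, with a root-mean-square difference of 0.28 in centred log2 CPM over the 7 libraries. The processed pseudogene Gm7993 (0.30), the co-chaperone gene Bag1 (0.32) and Srebf2, a transcription factor of sterol synthesis (0.33), followed. For Rgs16 the nearest were Plekha5 (0.39), Dusp1, a phosphatase of MAP kinases (0.45), Hgs, of endosomal sorting (0.47), and Pgd (0.51). For Gnai2 they were Elovl5, a fatty acid elongase (0.21), Dtx3l (0.25), Ngdn (0.28) and Fnbp1 (0.29). Among the members themselves, Rgs1 and Rgs2 were the closest pair (0.40), and Rgs16 was nearest to Rgs1 (0.65). Gnai2 and Rgs10 were nearest to each other (0.79), while Gnai2 and Gnai3 stood 1.10 apart. The points share 7 libraries, and no p was computed.

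The rest of the Gi pathway was described with 7 lists holding 101 genes, of which 54 were tested. None passed edgeR over all genes. At an unadjusted p under 0.05, 7 were lower in Cre and 0 higher, where 10.2% of all tested genes were lower and 1.41% higher. Of the 54, 36 had lower fitted values in Cre (60.1% of all tested genes did). The median log2 fold change of the 54 was −0.42, against −0.39 for all tested genes and −0.09 for the 9 members. The median of all tested genes was −1.04 at a mean log2 CPM of 5 or less. From 6 to 7 it was −0.0082, from 7 to 8 it was −0.034 and from 8 to 9 it was −0.0091. Rgs3 and Rgs19 had a mean log2 CPM of 2.86 and 3.57, and the other members 6.02 to 8.83. DESeq2 called 3 of the 54 lower (Ric8b, Gpsm2 and Ccr2), against 7.23% of all genes with an adjusted p. Both Cre libraries lay below every Control library for 9 of the 54 and above for 1, against 10.9% and 4.05% of all tested genes.

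**Figure D5:**
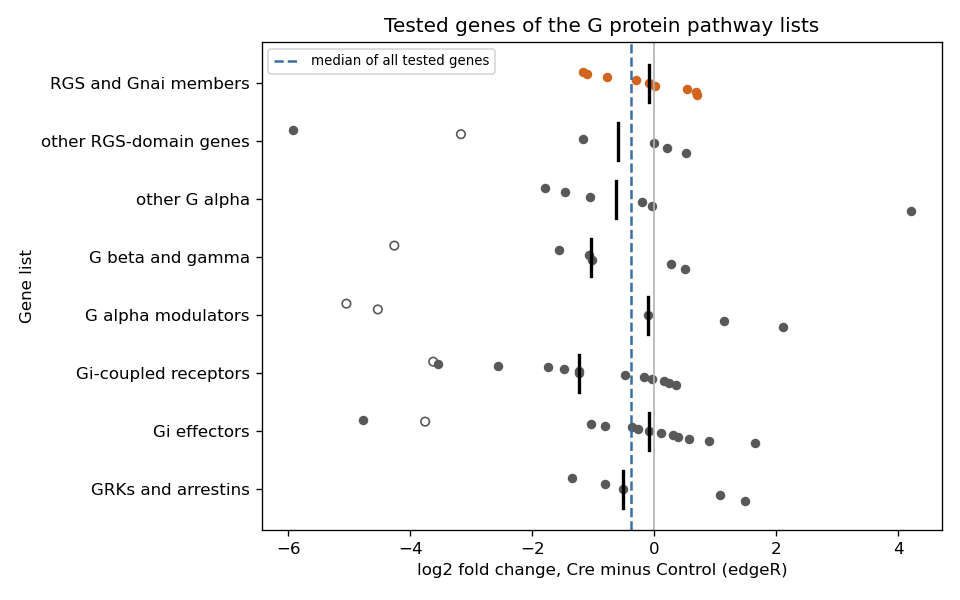
Log2 fold change of Cre minus Control (edgeR) for tested genes of each list; black ticks are list medians, the dashed line the median of all 9854 tested genes, and open circles are genes with 0 counts in both Cre libraries, placed at the limit that 3 counts over both libraries allow. The members lie between −1.17 and 0.70, within the range of the other lists.

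Many other RGS-domain genes had few or no counts. Of 19, 7 had no count in any library: Rgs4, Rgs7, Rgs13, Rgs18, Rgs20, Rgs21 and Rgs22. Rgs18 is known from platelets and myeloid cells and Rgs13 from germinal centre B cells. Rgs5, a gene of pericytes, had 0 to 3 counts in Control against 14 and 0 in Cre and was not tested. Of 6 tested, 4 had lower and 2 higher fitted values in Cre. Arhgef1, whose product binds alpha subunits of the G12 and G13 class, had 183 to 531 counts in Control against 534 and 297 in Cre. Axin1, a scaffold of Wnt signalling with an RGS fold, had 161 ± 82.5 CPM in the Control libraries, compared with 109 and 31.0 CPM in those with Cre (edgeR adjusted p = 0.501). Axin2 had 0 to 104 counts in Control against 1 and 0 in Cre, and Rgs11 0 to 48 counts in Control and 0 in both Cre libraries.

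Among other G protein subunits, Gnas, the stimulatory alpha subunit that raises cyclic AMP, had 92.5, 109, 162, 124 and 160 CPM in the Control libraries, compared with 40.4 and 52.4 CPM in those with Cre. Both Cre libraries lay below all Control libraries, but the log2 fold change of −1.47 ± 0.65 did not pass (edgeR adjusted p = 0.427). Gnb1, a beta subunit, had 142, 116, 187, 112 and 200 CPM in the Control libraries, compared with 35.2 and 66.9 CPM in those with Cre. Here too the groups did not overlap and the log2 fold change of −1.56 ± 0.63 missed the threshold (adjusted p = 0.422). The beta subunit Gnb2 had 359 to 1365 CPM in the Control libraries, compared with 831 and 895 CPM in those with Cre, and Gna13 stood at 144 to 343 CPM in the Control libraries, compared with 214 and 256 CPM in those with Cre, inside the Control range in each case. Of 6 tested beta and gamma genes, 4 had lower fitted values, and of 6 other alpha genes, 5. Gna12 had 15 counts in Control replicate 1, 0 in the other Control libraries, and 139 and 0 in Cre. Gna11 had 15 to 190 counts in Control against 4 and 26 in Cre. Of the gamma genes, Gng12 had 0 to 62 counts in Control and 0 in both Cre libraries, and Gng2 had 36 to 154 in Control against 105 and 0 in Cre.

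Among modulators of the alpha subunit stood the gene of smallest p in these lists. Ric8b, a chaperone and exchange factor of alpha subunits, had 10, 18, 32, 59 and 122 counts in Control and 0 in both Cre libraries, at least 33.1-fold lower against the limit of 3 counts over both (edgeR adjusted p = 0.367, DESeq2 adjusted p = 0.0053). Without Control replicate 5 that bound was 20.3-fold. Gpsm2, which binds Gi alpha subunits in spindle orientation, had 2 to 83 counts in Control and 0 in Cre, at least 23.2-fold lower (edgeR 0.422, DESeq2 0.0278), or 15.4-fold without Control replicate 4. Its relative Gpsm3, found in leukocytes, had 166 to 239 counts in Control against 366 and 50 in Cre. Ric8a had 5 to 89 counts in Control against 46 and 321 in Cre, and its higher fitted value rested on Cre replicate 2. In all, 1351 of the 9854 tested genes were at 0 in both Cre libraries. Such bounds, here and for the genes below, cover counting error only. The Cre libraries differed from each other by more than that (chi-square per degree of freedom 89.8).

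Of 13 tested Gi-coupled receptors, 10 had lower and 3 higher fitted values in Cre. Ccr2, the receptor for the monocyte chemoattractant chemokines, had 111, 86.2, 194, 24.4 and 144 CPM in the Control libraries, compared with 17.1 and 1.38 CPM in those with Cre, with no overlap (log2 fold change −3.54 ± 1.23; edgeR adjusted p = 0.391, DESeq2 adjusted p = 0.0159). Ccr4 had 1 to 35 counts in Control and 0 in Cre (at least 12.3-fold lower), and Gpr18 had 20 to 172 in Control against 27 and 0 in Cre. Cxcr4, the receptor for CXCL12, had 25.2 to 172 CPM in the Control libraries, compared with 126 and 4.14 CPM in those with Cre. S1pr1, which directs exit from lymphoid tissue, stood at 147 to 386 CPM in the Control libraries, compared with 182 and 206 CPM in those with Cre, inside the Control range.

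Effectors and desensitising proteins were mixed. Of 13 tested effectors, 7 had lower and 6 higher fitted values. Adcy6, an adenylyl cyclase that Gi alpha subunits inhibit, had 24.3, 99.7, 8.61, 122 and 71.9 CPM in the Control libraries, compared with 210 and 196 CPM in those with Cre, higher than any Control library (log2 fold change 1.65 ± 0.83; edgeR adjusted p = 0.429). Plcb2, a phospholipase driven by beta and gamma subunits, had 9 to 37 counts in Control against 2 and 0 in Cre, and Pik3cg, the catalytic subunit of PI3K gamma, had 0 to 86 in Control and 0 in both Cre libraries (at least 13.5-fold lower, or 2.85-fold without Control replicate 4). Of the receptor kinases, Grk2 had 246, 352, 446, 253 and 330 CPM in the Control libraries, compared with 144 and 228 CPM in those with Cre, and Grk6 163 to 473 CPM in the Control libraries, compared with 78.2 and 135 CPM in those with Cre. Both lay below every Control library without passing (edgeR adjusted p = 0.433 and 0.422). Arrb2, an arrestin that uncouples phosphorylated receptors, had 100 to 233 CPM in the Control libraries, compared with 573 and 148 CPM in those with Cre, and its higher fitted value rested on Cre replicate 1.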

How the data were processed

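The deposited counts are raw whole numbers per 3′ region, per the file headers; 116000 regions were summed per gene, and counts of the same gene are also given as CPM. Per the submitters' processing notes, FastQC 0.11.8, HISAT2 2.1.0, DESeq2 and mm10 were used; neither the counting tool nor its strand setting nor its annotation is given in the sources used here. The authors' deposited table gives DESeq2 p-values and FDR, a fold (ratio of normalized values), its log2 fold change, and GC content as a percent. Samples were grouped by title. The main test was edgeR 4.0.16 (R 4.3.3) with TMM, robust quasi-likelihood, group as the only term and filterByExpr (minimum count 10, minimum total 15), two-sided, Benjamini-Hochberg over 9854 genes at 0.05. The SE comes from the F statistic and intervals from its t quantile. Regions were placed with GENCODE M21, which gave all 9 genes the file's coordinates. P-values measure the spread between libraries, which the series design calls biological replicates. Binomial intervals and limits (3 counts for a count of 0) cover counting error only. No 2 libraries of a group agreed within sampling noise (chi-square per degree of freedom 33.7 or more).

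Alternatives were DESeq2 1.42.0, limma 3.58.1 voom with and without library weights, other scalings, filters and region choices, a replicate block, and each library left out. The 9 genes and all lists were chosen with earlier results of these data known. Named genes were the 9, up to 3 of smallest p per pathway list, the 4 nearest profiles of Rgs1, Rgs16 and Gnai2, and genes of the cell type and model. Of these, Col1a2 had 23.2 to 206 CPM in the Control libraries, compared with 3.63 and 1.38 CPM in those with Cre (edgeR adjusted p = 0.323, DESeq2 adjusted p = 0.00033). Its level in sorted T cells does not check the Cre or the deletion, which was aimed at fibroblasts. Gnai1, Arhgef1, Gnb2, Gna13, Gpsm3, Cxcr4, S1pr1, Rgs5 and the RGS genes without a count were named after their values were seen, as were the immediate early genes. Some marker genes are not reported here.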

Additional observations from a re-analysis of the deposited data

Results flagged for a closer look

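The highest Control library of Rgs1, replicate 2, lay apart from the other 4: its gap to the next library was 0.843 of the group's range, above Dixon's 95% critical value of 0.710 for 5 samples. The same library stood apart for Rgs16 (0.779), for the sum of the 7 RGS genes (0.736) and, as the lowest, for the share of Gnai2 among Gnai2 and Gnai3 counts (0.736). Among pathway genes, Control replicate 5 was high for Rgs11 (0.726) and Gna11 (0.899), replicate 4 for Pik3cg (0.822) and replicate 1 for Gna12 (1, since the other 4 libraries had no count). The critical value flags about 1 in 20 groups only where values are normally distributed, which was not checked for these CPM. The share of all tested genes that it flags was not computed. The entries of replicate 2 share counts and are not independent of each other.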

How the results depend on the processing

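None of the 9 genes passed the threshold under any of the 17 alternatives (lowest adjusted p 0.195, for Rgs14 without Cre replicate 1), so 0 members were called throughout. Gnai2 and Rgs14 were below 0 in all of them, Gnai2 with an unadjusted p of 0.012 to 0.335 and an adjusted p of 0.283 to 1. Over all genes, the 1 call became 43 without a filter, 642 with DESeq2, 3 with voom, 0 with weighted voom (also 0 of the 9 genes) and 5 with the replicate block, and ran from 1 to 219 with a library left out (219 without Cre replicate 1, 2 without Cre replicate 2). Pathway list calls went from 0 to 3 with DESeq2; at other settings they were 0. The cause was not tested. Signs turned for Rgs1 with upper-quartile factors (−0.0927), the largest region only (−0.0038) and the replicate block (−0.50); for Rgs10 with DESeq2 size factors (0.0196), no filter (0.0129), the DESeq2 test (0.0195) and the block (0.35); and under the block for Rgs3 (−0.93) and Rgs19 (−1.12). With a library left out, values ran from −0.38 to 0.47 for Rgs1, −1.33 to 0.33 for Rgs2, −1.53 to 1.38 for Rgs3, −1.06 to 0.52 for Rgs10, −0.65 to 1.41 for Rgs16, −1.66 to 1.56 for Rgs19, −2.45 to 0.00061 for Gnai3, −4.66 to 5.24 for Gna12, −0.19 to 2.99 for Ric8a and −0.22 to 1.77 for Arrb2. Size factors moved the median of all genes by 0.10 and upper-quartile factors by −0.10. Only numbers 1 and 2 occur in both groups, so under the block Control replicates 3 to 5 add nothing to the difference. The labels give no batch. Deviations of same-numbered libraries from their group means had correlations of 0.0030 and 0.0020. With 2 Cre libraries their deviations mirror each other, so these correlations are not separate checks and cannot exclude a pairing. Rgs3 and Rgs19 did not pass the stricter filter and have no value there. With 2 Cre libraries and counts under 100 for these genes, wide intervals limit what can be seen.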
